A study of Neotoma lepida with 16 samples.

Results

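Genes of the cell cycle and of DNA replication were followed in the liver of desert woodrats (Neotoma lepida), a wild plant-eating rodent, on gene arrays designed for the rat. Members were chosen by gene name, with earlier results of these data known. The names were Mcm2 to Mcm10, the A, B, D and E cyclins, all names beginning with E2f, Orc or Rfc, all Cdk and Cdc names with a number other than Cdc42, and Pcna, Top2a, Mki67, Aurkb, Plk1 and Bub1b. That gave 110 probes for 77 gene names, of 41012 probes for 35561 names on the array. Of the 77 genes, 66 had a probe whose signal stood well above background on 4 or more of the arrays, and these were tested among 26486 genes in all.

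The animals were wild-caught, came from a Mojave or a Great Basin population, lived in individual cages on rabbit chow for 3 months, and then received chow with rising amounts of creosote or juniper for 5 days. The Mojave creosote group held 4 males, and the Mojave juniper, Great Basin creosote and Great Basin juniper groups each held 2 males and 2 females. As background, Mojave woodrats feed on creosote bush in the wild and Great Basin woodrats on juniper. Animals on chow alone were not among the samples analysed here, so each diet was set against the other diet. Each array carried the RNA of 1 animal in red and an equimolar pool of all 16 animals in green. A value is therefore the log2 ratio of 1 animal over the pool, 0 stands for a signal equal to that of the pool, and levels of different genes were not compared. The dyes were not exchanged, and 0 need not be the average animal for a given gene. Cdk10, for example, lay above 0 in every animal (0.046 to 0.79). Values above or below the pool are therefore read between groups.

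In the mammalian cell cycle, D cyclins with the kinases Cdk4 and Cdk6 inactivate the retinoblastoma protein and release E2F factors, which switch on the genes of S phase. Origin recognition proteins then load the MCM helicase onto DNA, and the helicase unwinds the template for polymerases held by the sliding clamp. B cyclins with Cdk1 start mitosis, and the anaphase-promoting complex ends it. Most hepatocytes of an adult liver rest outside the cycle and can re-enter it after loss of liver tissue.

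Some markers of dividing cells were too dim to test, and others were measured. Mki67, a protein of proliferating nuclei, Aurkb, a mitotic kinase, Ccna2, the cyclin of S phase and G2, and the replication factors Mcm10 and Orc6l were well above background on 0 arrays. Ccna1, Cdc14a, Cdc25c and Cdc6 passed on 1 array at most, Cdc7 on 2 and E2f7 on 3, and these 11 genes were not tested. Bub1b, Ccnb2, Cdc20 and Cdc2a, which also act in dividing cells, were well above background on all 16 arrays, and Ccnb1 on 15. The rat probes may bind woodrat transcripts weakly, so a dim probe does not show that the gene was silent. Aurka, Rrm1 and Rrm2 are not gene names of the table used here.

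Livers of Mojave woodrats on creosote had lower levels of E2f6, Ccnd1, Mcm2, Mcm6, Cdk4, Cdk6, Cdk9, Cdc14b and Cdc40, and a higher level of Cdk10, than livers of Mojave woodrats on juniper. By limma, with p adjusted over the 26486 genes and a threshold of 0.05, 9 members fell and 1 rose in the Mojave creosote group relative to the Mojave juniper group, among 66 tested. These 10 members are 15.2% of the tested members, against 9.56% of all genes tested (5.73% lower and 3.83% higher). Among genes measured on at least 12 arrays, 10 of 63 members passed, against 12.8% of all such genes, so the excess was small and lay in the lower calls. The median difference of the members was -0.14 (log2), and 48 of 66 were negative, against a median of -0.0039 and 51.0% negative over all genes. Within the 4 slides, each of which held 1 array of every group, the median difference of the members was -0.13, -0.10, -0.22 and -0.08. In bulk liver, fewer cells of a type and less RNA per cell cannot be told apart.

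In the Great Basin population few members passed between diets. There 3 of 66 members passed, 1 higher and 2 lower on creosote, which is 4.55% of the members against 4% of all genes (2.08% higher and 1.93% lower) and hence near the background. The median difference of the members was 0.04, with 42 of 66 positive, and the within-slide medians were 0.07, 0.09, -0.03 and 0.07. With both populations averaged, 9 members passed, 1 higher and 8 lower on creosote, or 13.6% against 12.1% of all genes (5.73% higher and 6.38% lower), again near the background. The comparisons below share animals: the average uses the same 16 arrays as the comparison in each population.

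**Figure D1:**
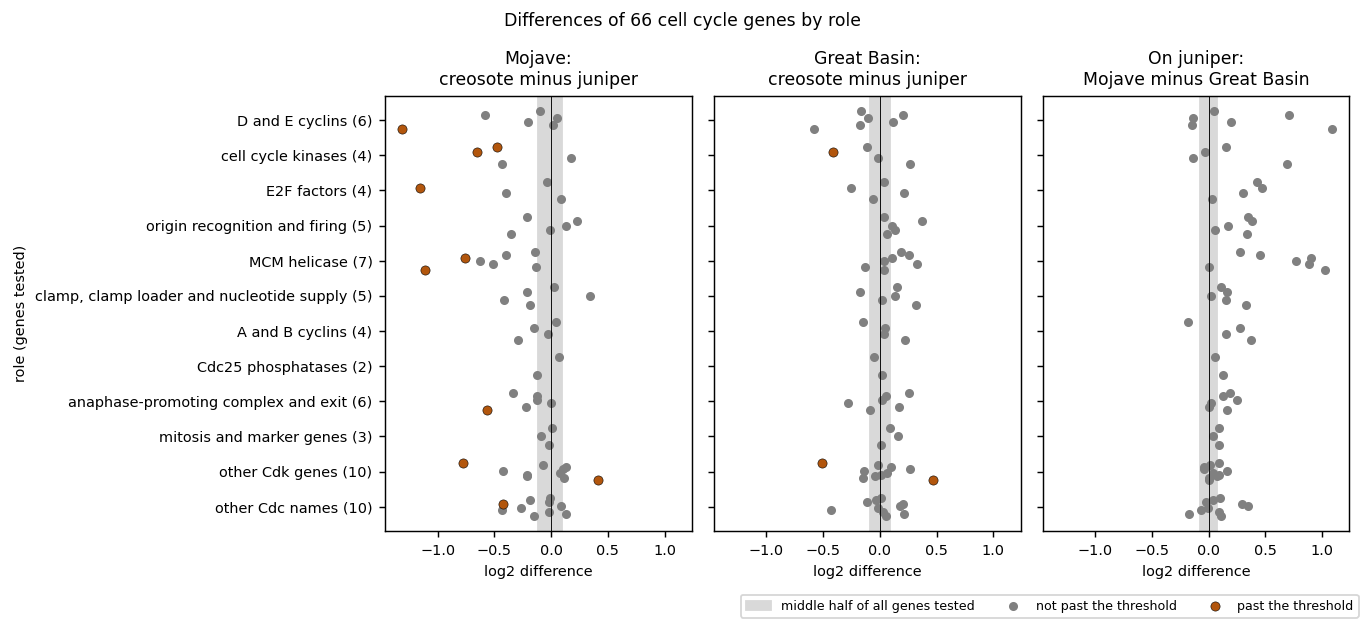
Log2 difference (x axis) of each of the 66 tested members, grouped by role (y axis), for creosote minus juniper in Mojave animals, creosote minus juniper in Great Basin animals, and Mojave minus Great Basin animals on juniper. Orange points passed the adjusted p threshold, grey points did not, and the grey band spans the middle of all genes tested from the lower to the upper quartile; 10 members passed in Mojave animals, 3 in Great Basin animals and 0 on juniper, where the MCM points lie to the right.

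Genes of the D-cyclin module were among those that passed. Cyclin D1 (Ccnd1), whose synthesis ties growth signals to the cell cycle, had log2 ratios of -1.16, -0.67, -0.58 and -0.13 in Mojave animals on creosote, against 0.50, 0.10, 1.13 and 1.18 in Mojave animals on juniper. Every creosote animal lay below every juniper animal, although the spread within both groups was wide (-0.63 ± 0.42 on creosote and 0.73 ± 0.52 on juniper, SD, n = 4 each). The fitted difference was -1.31 ± 0.30 (SE), 2.49-fold lower on creosote, with an adjusted p of 0.013 by limma. On creosote, Great Basin animals had -0.60, -0.64, -1.55 and -1.001, against 0.14, -0.79, -0.38 and -0.43 on juniper. These groups overlapped through the juniper animal at -0.79, and the difference of -0.58 ± 0.28 missed the threshold (adjusted p = 0.31). The Mojave call was lost without the 4 dim arrays of slide 1 (adjusted p = 0.0809) and in male animals alone (adjusted p = 0.0529), at differences of the same sign.

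Cdk4, the kinase that D cyclins activate, fell on creosote in both populations. Its log2 ratios were -0.57, -0.18, -0.15 and -0.24 in Mojave animals on creosote, against 0.28, 0.42, 0.29 and 0.33 in Mojave animals on juniper. In the Great Basin population Cdk4 stood at -0.08, 0.03, 0.10 and -0.23 on creosote, against 0.36, 0.20, 0.38 and 0.51 on juniper. The diet groups did not overlap in either population, and all 4 slides gave a lower value on creosote in each population. The difference was -0.66 ± 0.10 in Mojave animals (adjusted p = 0.0014, limma) and -0.41 ± 0.10 in Great Basin animals (adjusted p = 0.025), or 1.58-fold and 1.33-fold lower. The second kept Cdk4 probe gave -0.52 (adjusted p = 0.014) and -0.33 (adjusted p = 0.13). The Great Basin call did not hold without Great Basin creosote animal 1 (adjusted p = 0.0841) or 4 (0.0668), or without Great Basin juniper animal 1 (0.0787), 3 (0.0575) or 4 (0.09). It was also lost with the smaller offset (adjusted p = 0.0537), median centring (0.334), the processed signals (0.0781), the mean of all kept probes (0.0524), without slide 1 (0.173) and in males alone (0.214). The Mojave call held in each of these settings and without any 1 animal.

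Cdk6, the other partner of the D cyclins, fell in Mojave animals. They had -0.18, -0.42, -0.26 and -0.19 on creosote, against 0.15, 0.20, 0.11 and 0.15 on juniper, a difference of -0.47 ± 0.09 (adjusted p = 0.0037). All 4 creosote animals lay below the pool and all 4 juniper animals above it. The Great Basin ratios overlapped, at -0.10, 0.14, -0.16 and -0.34 on creosote and 0.06, -0.11, 0.06 and -0.02 on juniper, and the difference was -0.11 ± 0.08 (adjusted p = 0.54). The red channel taken alone gave an adjusted p of 0.0741 for the Mojave call. The remaining D and E cyclins did not pass in any comparison: in Mojave animals Ccnd2 differed by 0.01, Ccnd3 by -0.21, the D-cyclin binding protein Ccndbp1 by 0.05, and the E cyclins Ccne1 and Ccne2, which drive the step into S phase with Cdk2, by -0.58 ± 0.27 (adjusted p = 0.23) and -0.09. Cdk2 itself differed by 0.18 ± 0.08 in Mojave animals and -0.01 in Great Basin animals.

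**Figure D2:**
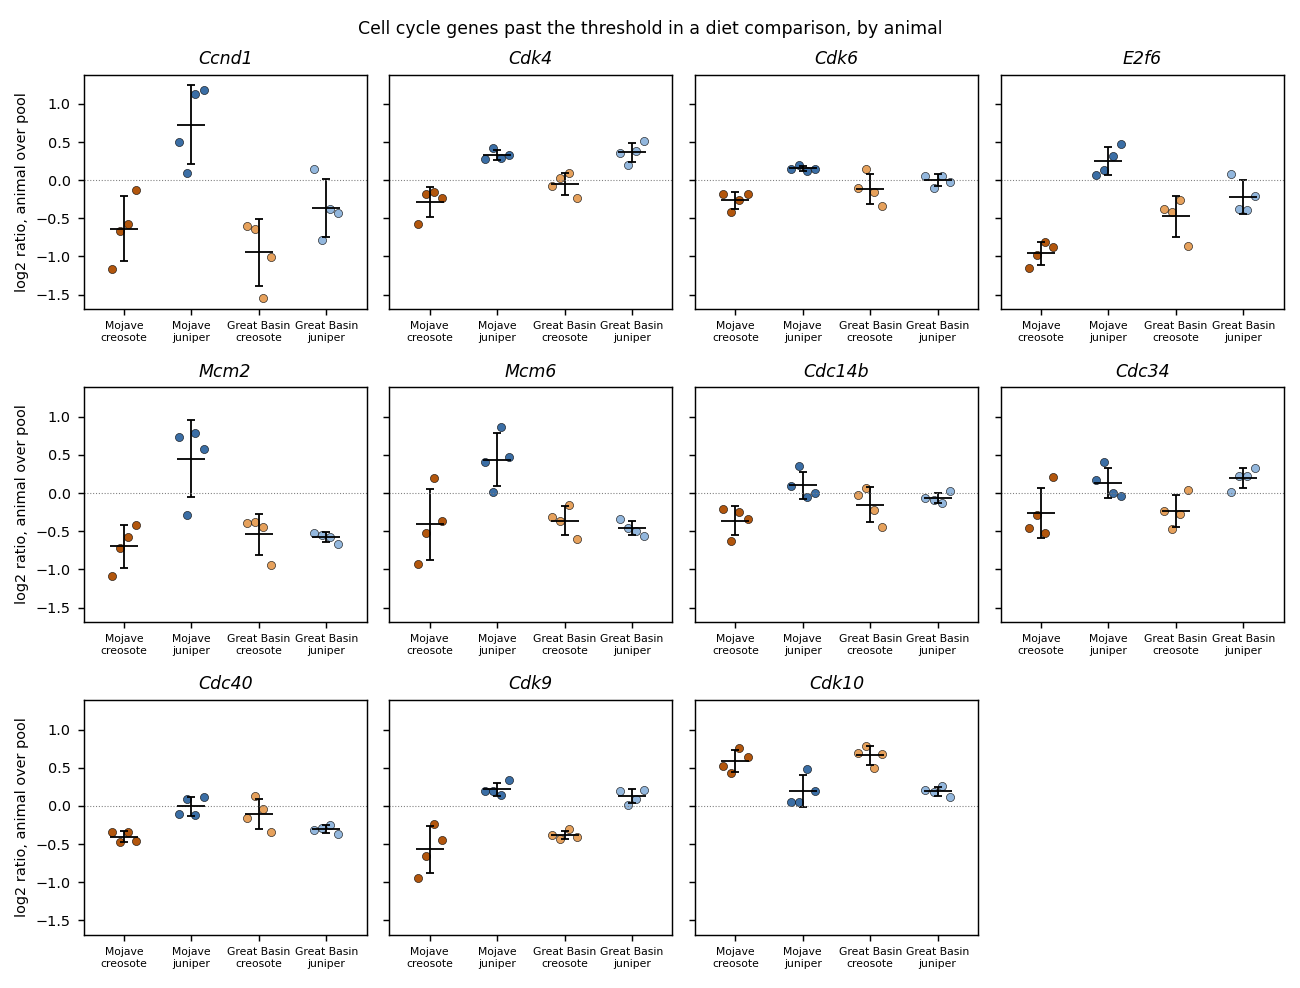
Log2 ratio of each animal over the pool (y axis) in the 4 groups (x axis) for the 11 members that passed the threshold in a diet comparison, with 1 point per animal; bars give the group mean and SD of 4 animals. Ccnd1, Cdk4, Cdk6, E2f6, Mcm2, Cdc14b, Cdc40 and Cdk9 have all Mojave creosote points below all Mojave juniper points, and Cdk10 is the gene that lies higher on creosote in both populations.

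Among the E2F factors, E2f6 showed the member difference with the smallest p in Mojave animals. E2f6 lacks the domain that binds the retinoblastoma protein and represses E2F target genes with Polycomb proteins. Its log2 ratios were -1.16, -0.98, -0.81 and -0.87 in Mojave animals on creosote, against 0.07, 0.13, 0.32 and 0.47 in Mojave animals on juniper. The gap between these groups was wider than the range within each of them, and the difference was -1.16 ± 0.15, 2.23-fold lower, with an adjusted p of 0.00034 by limma. Within the 4 slides it was -1.13, -1.34, -1.23 and -1.11. Great Basin animals had -0.38, -0.41, -0.26 and -0.86 on creosote, against 0.09, -0.37, -0.39 and -0.21 on juniper, which overlapped, and the difference was -0.25 ± 0.14 (adjusted p = 0.38). The Mojave call held under all 13 other settings and without any 1 of the 16 animals.

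The remaining E2F genes did not pass. E2f1, an activator of S-phase genes, differed by 0.09 ± 0.07 between diets in Mojave animals and -0.06 ± 0.07 in Great Basin animals. E2f5, a repressor of resting cells, differed by -0.39 ± 0.14 in Mojave animals (adjusted p = 0.093) and 0.21 ± 0.13 in Great Basin animals, and E2f8, a repressor that is abundant in polyploid liver cells, by -0.04 and 0.04.

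The MCM helicase genes were set apart by the Mojave animals on juniper. Mcm2 to Mcm7 encode the 6 subunits of the ring that opens DNA at replication forks. Mcm2 had log2 ratios of -1.09, -0.72, -0.58 and -0.41 in Mojave animals on creosote, against 0.73, -0.29, 0.78 and 0.58 in Mojave animals on juniper. In Great Basin animals Mcm2 had -0.39, -0.38, -0.45 and -0.94 on creosote, against -0.52, -0.55, -0.58 and -0.66 on juniper. Thus 3 Mojave juniper animals stood above the pool, Mojave juniper animal 2 stood below it, and so did the other 12 animals. The diet difference was -1.11 ± 0.22 in Mojave animals, 2.16-fold lower on creosote (adjusted p = 0.0056, limma), and 0.04 ± 0.21 in Great Basin animals (adjusted p = 0.95). A second Mcm2 probe gave -1.18 in Mojave animals (adjusted p = 0.0061) and -0.02 in Great Basin animals.

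In Mcm6, too, Mojave animals on juniper had the highest mean. Its ratios were -0.93, -0.52, 0.19 and -0.37 in Mojave animals on creosote, against 0.41, 0.01, 0.86 and 0.47 in Mojave animals on juniper, which overlapped through Mojave creosote animal 3. The difference was -0.76 ± 0.21 (adjusted p = 0.032). This call did not hold without Mojave creosote animal 1 (adjusted p = 0.0764), 2 (0.0752) or 4 (0.0514), or without Mojave juniper animal 1 (0.103), 3 (0.0613) or 4 (0.0508). In Great Basin animals Mcm6 had -0.32, -0.36, -0.15 and -0.61 on creosote, against -0.34, -0.46, -0.49 and -0.56 on juniper, with a difference of 0.10 ± 0.19.

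Mcm4, Mcm5 and Mcm7 lay in the same direction without passing. In Mojave animals the diet difference was -0.51 ± 0.18 for Mcm4 (adjusted p = 0.093), -0.63 ± 0.20 for Mcm5 (adjusted p = 0.065) and -0.40 ± 0.15 for Mcm7 (adjusted p = 0.11). Mcm5 had -0.61, -0.26, -0.32 and -0.05 in Mojave animals on creosote, against 0.33, -0.19, 1.01 and 0.42 in Mojave animals on juniper, so that Mojave juniper animal 2 again fell among the creosote animals. Without that animal Mcm4 (-0.80, adjusted p = 0.00385) and Mcm5 (-0.88, adjusted p = 0.0143) passed. Mcm3 (-0.13 ± 0.11) and Mcm8 (-0.14 ± 0.09), which acts in DNA repair and meiosis and is no subunit of the ring, showed the smallest differences of the 7 MCM genes tested. The second kept Mcm4 probe gave -0.12 in Mojave animals and -0.09 in Great Basin animals, unlike the brightest one, so the 2 probes of Mcm4 disagreed.

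Counted over the 7 tested MCM genes, all 7 differences were negative in Mojave animals, with a median of -0.51, and 2 passed. That is 28.6% of this short list called, against 9.56% of all genes, of which 51% were negative. All 7 stayed negative with the smaller background offset, median centring, the processed signals and the red channel alone, with medians of -0.66, -0.72, -0.87 and -0.62. The calls were less stable: Mcm2 missed the threshold in the red channel alone (adjusted p = 0.077) and in males alone (0.0795), and Mcm6 with the processed signals (0.0702), in the red channel alone (0.227) and in males alone (0.222). In Great Basin animals 6 of 7 were positive, with a median of 0.10, and 0 passed. Of all 26486 genes, 12807 were positive there and 4% passed. In male animals alone the Mojave median was -0.36 and 0 passed, against 4.04% of all genes. This comparison holds 2 juniper males, among them Mojave juniper animal 2. Of the 6 ring subunits, Mojave creosote animals 1 to 4 had 0, 0, 2 and 1 above the pool, Mojave juniper animals 5, 2, 6 and 5, Great Basin creosote animals 0, 1, 1 and 1, and Great Basin juniper animals 0, 1, 2 and 1.

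**Figure D3:**
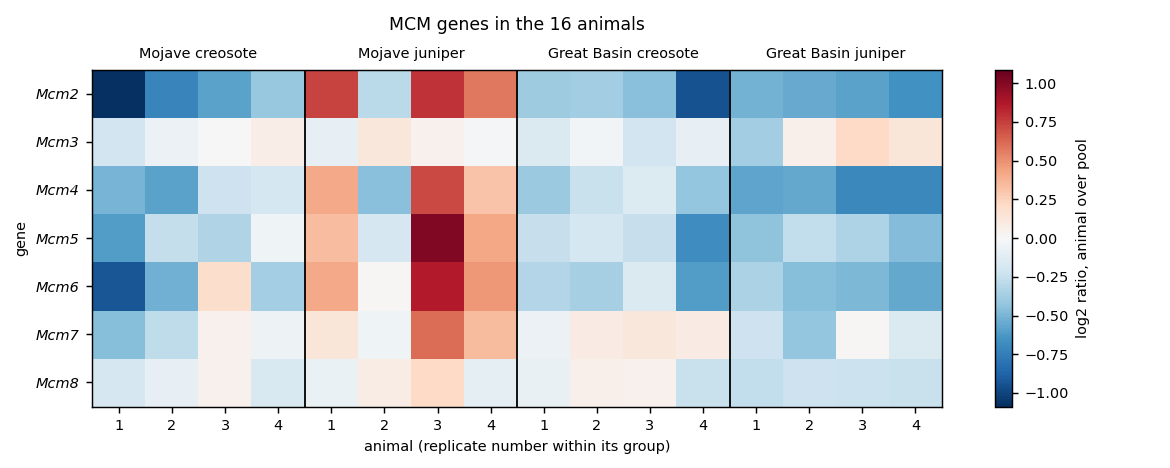
Log2 ratio over the pool (colour, red above and blue below) of the 7 tested MCM genes (rows) in the 16 animals (columns, in 4 groups of 4). Mojave juniper animals 1, 3 and 4 are red for Mcm2, Mcm4, Mcm5, Mcm6 and Mcm7, Mojave juniper animal 2 is pale or blue for them, and Mcm3 and Mcm8 vary least.

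Loading and clamp genes did not pass in either population. Orc1l, the large subunit of the origin recognition complex, differed by -0.35 ± 0.12 in Mojave animals (adjusted p = 0.082) and 0.06 ± 0.11 in Great Basin animals. Orc2l, Orc3l, Orc4 and Orc4l differed by -0.01, 0.13, 0.23 and -0.22 in Mojave animals, and Orc4 by 0.37 in Great Basin animals. Orc4 and Orc4l are separate names on the array and may stand for 1 gene. Pcna, the sliding clamp, had 0.12, -0.36, -0.04 and 0.08 in Mojave animals on creosote, against 0.19, -0.01, 0.43 and 0.30 in Mojave animals on juniper. In Great Basin animals Pcna had 0.22, 0.25, 0.21 and 0.18 on creosote, against 0.06, 0.02, -0.29 and -0.21 on juniper, where the groups did not overlap. The Pcna differences were -0.19 ± 0.11 (adjusted p = 0.35) and 0.32 ± 0.10 (adjusted p = 0.095), and a second probe gave 0.53 and 0.44, so the 2 probes disagreed in Mojave animals. Of the clamp loader genes, Rfc2 differed by -0.42 ± 0.18 and Rfc3 by 0.34 ± 0.13 in Mojave animals (adjusted p = 0.19 and 0.14), Rfc4 by -0.22 and Rfc5 by 0.03.

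Cdc2a, the B cyclins, the Cdc25 phosphatases and the mitotic genes Top2a, Plk1 and Bub1b did not pass between diets in either population. Cdc2a, the mitotic kinase now named Cdk1, had -0.42, -0.27, -0.43 and 0.26 in Mojave animals on creosote, against 0.54, -0.47, 0.63 and 0.44 in Mojave animals on juniper, where animal 2 was again low. Its differences were -0.43 ± 0.23 in Mojave animals (adjusted p = 0.31) and 0.27 ± 0.22 in Great Basin animals (adjusted p = 0.59). Cyclin B1 (Ccnb1), its partner, differed by -0.29 ± 0.18 in Mojave animals and 0.22 ± 0.17 in Great Basin animals, and cyclin B2 (Ccnb2) by -0.15 ± 0.22 and 0.05 ± 0.20. Top2a, which untangles sister chromatids, Plk1, a mitotic kinase, and Bub1b, a checkpoint kinase, differed by 0.01, -0.09 and -0.02 in Mojave animals, each with an SE between 0.08 and 0.13. The phosphatases Cdc25a and Cdc25b, which activate the kinases, differed by -0.13 ± 0.09 and 0.07 ± 0.07.

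Among the members grouped under the anaphase-promoting complex and mitotic exit, the one to pass was Cdc14b, a phosphatase that removes the marks set by cyclin-dependent kinases. It had -0.21, -0.63, -0.25 and -0.34 in Mojave animals on creosote, against 0.097, 0.36, -0.055 and 0.0046 in Mojave animals on juniper. The groups did not overlap, and the difference was -0.57 ± 0.11 (adjusted p = 0.0043). It was -0.09 ± 0.10 in Great Basin animals. The subunits of the anaphase-promoting complex Cdc16, Cdc23, Cdc26 and Cdc27 differed by -0.22, -0.13, -0.13 and -0.34 in Mojave animals and did not pass, although the second Cdc27 probe, tested by itself, gave -0.58 (adjusted p = 0.038). Cdc20, which activates the complex at anaphase, differed by -0.01 ± 0.13 in Mojave animals and -0.28 ± 0.12 in Great Basin animals.

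**Figure D4:**
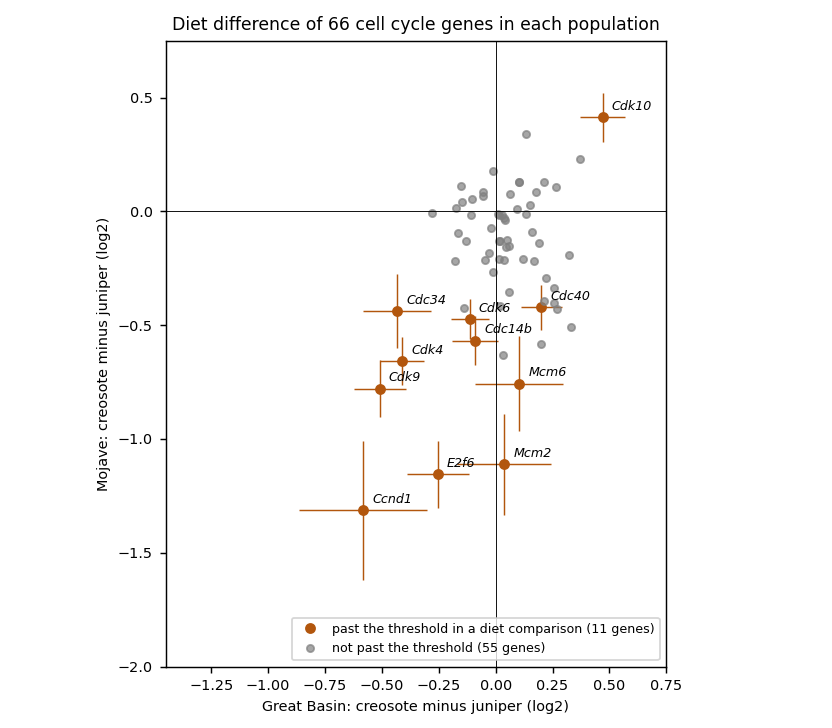
Creosote minus juniper difference (log2) of the 66 members in Mojave animals (y axis) against that in Great Basin animals (x axis); orange points are the 11 members that passed in a diet comparison, with bars of 1 SE, and grey points are the other 55. Cdk4, Cdk9, Cdc34, Ccnd1, E2f6, Cdk6 and Cdc14b lie below 0 on both axes, and Cdk10 lies above 0 on both. Cdk6, Cdc14b, Mcm2 and Mcm6 lie near 0 on the Great Basin axis.

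The other members that passed carry a Cdk or Cdc name, and some of them, such as Cdk9 and Cdc40, act mainly outside the cell cycle. Cdk9, the kinase that releases paused RNA polymerase II, fell in both populations. It had -0.95, -0.65, -0.23 and -0.44 in Mojave animals on creosote, against 0.19, 0.20, 0.14 and 0.34 in Mojave animals on juniper. Great Basin animals had -0.38, -0.43, -0.31 and -0.41 on creosote, against 0.20, 0.01, 0.09 and 0.20 on juniper. All 8 creosote animals lay below the pool and all 8 juniper animals above it, with differences of -0.78 ± 0.12 in Mojave animals (adjusted p = 0.0015) and -0.51 ± 0.12 in Great Basin animals (adjusted p = 0.021). The Great Basin call did not hold without Great Basin creosote animal 1 (adjusted p = 0.0549) or Great Basin juniper animal 1 (0.0713), 3 (0.0503) or 4 (0.0713). It was also lost under median centring (adjusted p = 0.252), with the processed signals (0.0648), in the red channel alone (0.0637), without slide 1 (0.0656) and in males alone (0.274). A second Cdk9 probe gave -0.75 in Mojave animals (adjusted p = 0.00038) and -0.24 in Great Basin animals (adjusted p = 0.18).

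Cdk10, a kinase that pairs with cyclin M and acts on the factor Ets2, was the member that rose. It had 0.52, 0.44, 0.76 and 0.64 in Mojave animals on creosote, against 0.06, 0.05, 0.49 and 0.20 in Mojave animals on juniper. The Great Basin ratios of Cdk10 were 0.70, 0.79, 0.49 and 0.68 on creosote, against 0.21, 0.18, 0.26 and 0.12 on juniper. Only the Mojave groups overlapped, through Mojave juniper animal 3, and the differences were 0.41 ± 0.11 in Mojave animals (adjusted p = 0.024) and 0.47 ± 0.10 in Great Basin animals (adjusted p = 0.014), 1.33-fold and 1.39-fold higher. The Mojave call did not hold without Mojave creosote animal 3 (adjusted p = 0.0565) or 4 (0.0503), or Mojave juniper animal 1 (0.111) or 2 (0.114), nor under median centring (0.173) or with the processed signals (0.0516). The Great Basin call was lost with the processed signals (0.124) and in males alone (0.0776).

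Cdc34, the ubiquitin-conjugating enzyme that works with the SCF ligase on Cdk inhibitors, passed in the average over populations at -0.43 ± 0.11 (adjusted p = 0.017). Its ratios were -0.45, -0.29, -0.52 and 0.20 in Mojave animals on creosote, against 0.17, 0.40, -0.0045 and -0.04 in Mojave animals on juniper. Great Basin animals had -0.24, -0.47, -0.27 and 0.03 on creosote, against 0.0090, 0.22, 0.23 and 0.33 on juniper. Both diet pairs overlapped through creosote animal 4 of each population, and the differences of -0.44 and -0.43 passed in neither population by itself. Without Mojave juniper animal 2 the adjusted p of the average was 0.0568 by limma. The call of Cdc34 in the average was also lost with the processed signals (0.0552), in the red channel alone (0.0524) and without slide 1 (0.106). Cdc40, a splicing factor, had -0.34, -0.48, -0.34 and -0.45 in Mojave animals on creosote, against -0.10, 0.09, -0.12 and 0.11 in Mojave animals on juniper, and fell there by 0.42 ± 0.10 on the log2 scale (adjusted p = 0.013, and 0.059 without Mojave juniper animal 2). In Great Basin animals Cdc40 differed by 0.20 ± 0.09 in the other direction (adjusted p = 0.27). The Mojave call of Cdc40 was also lost in the red channel alone (adjusted p = 0.112, limma) and in males alone (0.0724).

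Of the remaining Cdk and Cdc names that did not pass, Cdk5rap1, an enzyme that modifies mitochondrial transfer RNA, differed most, by -0.42 ± 0.16 in Mojave animals (adjusted p = 0.11). It passed there without Mojave creosote animal 3, at -0.56 (adjusted p = 0.0251), and then also in the average (adjusted p = 0.0289). In Mojave animals the centrosome protein Cdk5rap2 differed by 0.11, the transcription kinase Cdc2l5, now Cdk13, by 0.13, and the chaperone partner Cdc37l1 by 0.09. Great Basin animals had Cdk5rap2 at 0.79, -0.05, 0.65 and 0.04 on creosote, against -0.12, 0.09, 0.27 and 0.12 on juniper. Cdc2l5 had 0.40, 0.17, 0.47 and 0.29 there on creosote, against 0.13, -0.11, 0.22 and 0.25. Cdc37l1 had -0.58, -0.30, -0.49 and -0.23 there on creosote, against -0.39, -0.68, -0.49 and -0.74. Cdk7, which activates other Cdks, differed by -0.07 ± 0.10 in Mojave animals and -0.02 ± 0.09 in Great Basin animals.

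The average over populations kept Cdk4 (-0.53 ± 0.07, adjusted p = 0.00016), Cdk9 (-0.64 ± 0.09, adjusted p = 0.00015), E2f6 (-0.70 ± 0.10, adjusted p = 0.00028) and Cdk10 (0.44 ± 0.07, adjusted p = 0.00094) past the threshold under all 13 other settings and without any 1 animal. Ccnd1 (-0.95 ± 0.21), Cdk6 (-0.29 ± 0.06), Cdc14b (-0.33 ± 0.07) and Mcm2 (-0.54 ± 0.15) also passed in the average, with adjusted p between 0.0045 and 0.031. The Mcm2 average combined a Mojave difference with one of 0.04 in Great Basin animals. It did not hold without Great Basin creosote animal 4 (adjusted p = 0.0857), Great Basin juniper animal 3 (0.0665) or 4 (0.0577), Mojave creosote animal 1 (0.0549), or Mojave juniper animal 1 (0.0914) or 4 (0.0504). The Mcm2 average was also lost in the red channel alone (adjusted p = 0.242, limma), without slide 1 (0.117) and in males alone (0.399). In males alone the averages of Ccnd1 (0.104), Cdk6 (0.161) and Cdc14b (0.199) missed the threshold too. That of Cdk6 was also lost in the red channel alone (0.0582) and without slide 1 (0.0513). Mcm6 passed in the average without Mojave creosote animal 3 (adjusted p = 0.0255) and Mcm5 without Mojave juniper animal 2 (0.0433).

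Between populations on the same diet, 0 members passed. On juniper, where 0.0113% of all genes passed, 55 of 66 members had a positive difference, Mojave minus Great Basin, with a median of 0.11, against 12721 of 26486 genes. An unadjusted p under 0.05 was found for 21 members, against 2134 of all genes. The within-slide medians were 0.16, 0.14, 0.14 and 0.01. The 7 MCM genes had a median of 0.77, with all 7 positive: Mcm2 differed by 1.03 ± 0.21 (adjusted p = 0.15), Mcm6 by 0.90 ± 0.19 (0.16), Mcm4 by 0.88 ± 0.17 (0.14), Mcm5 by 0.77 ± 0.19 (0.21) and Mcm7 by 0.46 ± 0.14 (0.34). With the smaller offset, median centring, the processed signals or the red channel alone, 6 of 7 were positive. Mojave and Great Basin juniper animals did not overlap in 9 members, all with the Mojave values above, among them Mcm2, Mcm4, Mcm5, Mcm6 and Mcm8, which is 13.6% of the members against 3.56% of all genes. Ccnd1 differed by 1.09 ± 0.28 (adjusted p = 0.25) and Ccne1 by 0.71 ± 0.25 (adjusted p = 0.45). Without Mojave juniper animal 2, Mcm2 (1.29, adjusted p = 0.0043) and Mcm4 (1.101, adjusted p = 0.00153) passed, so that animal decided these calls. The Mcm4 values are those of its brightest probe, which disagreed with the second kept probe on the diet difference.

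On creosote, where 0.0793% of all genes passed, the median difference was -0.01, 30 of 66 were positive, 13 had an unadjusted p under 0.05, against 3734 of 26486 genes, and the MCM median was 0.0044. Without Great Basin creosote animal 4, Cdc40 (-0.38, adjusted p = 0.0471) and E2f6 (-0.54, adjusted p = 0.0337) passed, lower in Mojave animals. Averaged over diets, 0 members passed against 0.034% of all genes, and 16 had an unadjusted p under 0.05, against 2464 of 26486 genes. The averaged differences were led by Ccnd1 (0.73 ± 0.21, adjusted p = 0.25), followed by Mcm6 (0.47), Mcm4 (0.46), Mcm2 (0.45), Mcm5 (0.44), E2f8 (0.39), Cdc2a (0.34), Ccne1 (0.32), Orc4 (0.31) and Cdc37l1 (0.30). Orc4l (0.22), Cdc2l5 (-0.21) and Cdc16 (-0.19) came next among the members named here. Mcm4, by its brightest probe, passed without Mojave juniper animal 2, at 0.54 (adjusted p = 0.0203).

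Whether the diet difference itself differed between populations was tested by the interaction, the Mojave diet difference minus the Great Basin diet difference. By limma, 0 of 66 members and 0% of all genes passed, while 15 members and 3444 genes had an unadjusted p under 0.05. The median over the members was -0.16, with 52 of 66 negative, against 0.00010 over all genes, and the within-slide medians were -0.18, -0.17, -0.17 and -0.15. Single interactions with their unadjusted 95% intervals were -0.90 (-1.33 to -0.47, adjusted p = 0.098) for E2f6, -0.62 (-0.90 to -0.34, adjusted p = 0.09) for Cdc40 and -1.15 (-1.80 to -0.50, adjusted p = 0.13) for Mcm2. Cdk4 gave -0.25 (-0.55 to 0.05), Cdk9 -0.27 (-0.63 to 0.09) and Cdk10 -0.06 (-0.37 to 0.26). Without Great Basin creosote animal 4 the interaction passed for Cdc40 (-0.67, adjusted p = 0.028), E2f6 (-1.01, 0.0208) and Mcm2 (-1.26, 0.0461). Without Mojave juniper animal 2 it passed for Mcm2 (-1.50, 0.0419) and Mcm4 (-1.13, 0.0419). The Mcm4 value is that of its brightest probe, whose diet difference the second kept probe did not share. Under median centring of the arrays it passed for 15 members, all negative, and for 9.18% of all genes.

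Further lists set these genes in the wider pathway. Of the 8 inhibitors of cyclin-dependent kinases, all tested, 2 rose and 1 fell in Mojave animals on creosote and 0 passed in Great Basin animals. That is 37.5% of this short list in Mojave animals, against 9.56% of all genes, and 0% in Great Basin animals, against 4%. Cdkn1b (p27), which holds Cdk2 inactive and is degraded as cells enter S phase, had 1.00, 0.85, 0.74 and 0.85 in Mojave animals on creosote, against -0.50, -0.25, -0.88 and -0.33 in Mojave animals on juniper. These groups lay far apart, and the difference was 1.31 ± 0.18 (adjusted p = 0.00055, limma), a call that held under all 13 other settings and without any 1 animal. Great Basin animals had 0.51, 0.78, 0.90 and 0.72 on creosote, against 0.61, -0.29, 0.29 and 0.38 on juniper, and did not pass. Cdkn3, a phosphatase that acts on Cdk2, rose by 0.64 ± 0.16 in Mojave animals (adjusted p = 0.023, but 0.0656 without Mojave creosote animal 2 and 0.109 without Mojave juniper animal 2). The Cdkn3 call was also lost under median centring (0.198) and in males alone (0.185). Cdkn1c (p57) fell by 0.84 ± 0.17 on the log2 scale in Mojave animals (adjusted p = 0.0052) by its brightest probe, but its probes disagreed: the mean of all kept probes gave 0.24 in Mojave animals and 0.69 in Great Basin animals (adjusted p = 0.0248).

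Of 38 further cell cycle genes tested, 1 rose and 5 fell on creosote in Mojave animals and 1 rose in Great Basin animals. That is 15.8% of the list in Mojave animals, against 9.56% of all genes, and 2.63% in Great Basin animals, against 4%. In Mojave animals the genes that fell were Dut, which removes dUTP before it enters DNA (-0.71 ± 0.12, adjusted p = 0.0017), Pola2, a subunit of the polymerase that starts new strands (-0.67 ± 0.17), Bub3, a checkpoint protein (-0.40 ± 0.08), Fzr1, the Cdh1 activator of the anaphase-promoting complex (-0.39 ± 0.10), and Pold2, a subunit of the replicating polymerase delta (-0.38 ± 0.08), with adjusted p between 0.0017 and 0.026. Pola2 lost its call without Mojave creosote animal 1 (0.0529) or Mojave juniper animal 1 (0.106). Fzr1 lost it without Mojave creosote animal 1 (0.0552), 2 (0.0641) or 4 (0.0653) or Mojave juniper animal 1 (0.128), 2 (0.072) or 4 (0.0522). With the processed signals the Mojave calls of Bub3 (adjusted p = 0.0832, limma), Pold2 (0.0669) and Pola2 (0.0644) were lost. The red channel alone ended those of Pola2 (0.143) and Fzr1 (0.364), and slide as a block that of Fzr1 (0.0514). Pold2 (0.0643) and Pola2 (0.0592) did not pass without slide 1, nor Bub3 (0.101) and Pola2 (0.157) in males alone. Stmn1, which destabilises microtubules, rose in both populations, by 1.13 ± 0.22 in Mojave animals (adjusted p = 0.0049) and 1.15 ± 0.21 in Great Basin animals (adjusted p = 0.0045). The Great Basin call of Stmn1 was lost in males alone (adjusted p = 0.126, limma). The list's median was -0.10 in Mojave animals and 0.04 in Great Basin animals, close to those of the members.

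Of 16 growth-signal genes tested, 1 rose and 1 fell in each population. That is 12.5% of the list, against 9.56% of all genes in Mojave animals and 4% in Great Basin animals. Gadd45a, a growth-arrest gene induced by stress and DNA damage, had -2.23, -1.71, -1.37 and -1.35 in Mojave animals on creosote, against -0.18, -0.27, -0.37 and -0.05 in Mojave animals on juniper. The Great Basin ratios of Gadd45a were -1.46, -1.03, -0.59 and -1.12 on creosote, against 0.39, 0.83, 0.27 and -0.43 on juniper. It fell by 1.27 ± 0.24 on the log2 scale in Mojave animals (adjusted p = 0.0037) and by 1.32 ± 0.22 in Great Basin animals (adjusted p = 0.0026), with no overlap in either. Btg1, an antiproliferative gene, rose by 0.91 ± 0.27 in Mojave animals (adjusted p = 0.042) and 1.00 ± 0.25 in Great Basin animals (adjusted p = 0.033). Of the 16 leave-out settings, 10 ended the Mojave call of Btg1 and 5 the Great Basin call. Those were, in Mojave, the settings without Great Basin creosote animal 1 (0.0514) or 2 (0.0575), Great Basin juniper animal 1 (0.0535), 2 (0.0579) or 4 (0.0599), Mojave creosote animal 2 (0.0641), and Mojave juniper animal 1 (0.089), 2 (0.146), 3 (0.07) or 4 (0.0627). Without Mojave creosote animal 1, which stood highest at 1.13, its difference was 0.60 (adjusted p = 0.0487). In Great Basin they were those without creosote animal 1 (0.0936) or 4 (0.0821) or juniper animal 1 (0.0938), 2 (0.0769) or 4 (0.103). The Mojave call of Btg1 was also lost under median centring (adjusted p = 0.238, limma), with the processed signals (0.0779) and in the red channel alone (0.186). It was lost without the sex term (0.061), without slide 1 (0.054) and in males alone (0.174). The Great Basin call of Btg1 was lost with the processed signals (0.0651), without slide 1 (0.113) and in males alone (0.382). That of Gadd45a was lost in males alone (0.148).

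Averaged over populations, Ttk, a checkpoint kinase (0.53 ± 0.14), and Rpa3, a subunit that coats single-stranded DNA (0.32 ± 0.09), rose besides Stmn1, Cdkn1b, Cdkn3 and Btg1. Bub3, Dut, Fzr1 and Pold2, the checkpoint kinase Chek2 (-0.18 ± 0.05), Rpa2 (-0.18 ± 0.06) and Gadd45b (-0.54 ± 0.15) fell, besides Gadd45a and, by its brightest probe, Cdkn1c. Of these, Rpa2 had an adjusted p of 0.045 and lost its call without any 1 animal other than Great Basin creosote animal 1, Great Basin juniper animal 4 and Mojave juniper animal 4, with adjusted p up to 0.134 (without Mojave juniper animal 2). The calls of Stmn1, Cdkn1b, Btg1, Bub3, Dut, Pold2, Gadd45a and Cdkn1c held without any 1 animal. Calls of the remaining genes were lost with 1 animal or another left out. Without Great Basin creosote animal 4 these were Ttk (adjusted p = 0.0662), Chek2 (0.0585), Gadd45b (0.0749), Cdkn3 (0.065) and Fzr1 (0.0511), and without Mojave juniper animal 2 Chek2 (0.0893), Gadd45b (0.0661) and Cdkn3 (0.0782). Ttk (0.0544), Rpa3 (0.0597) and Gadd45b (0.0708) were lost without Great Basin creosote animal 3, Rpa3 (0.0689) and Cdkn3 (0.0785) without Great Basin juniper animal 3, and Ttk (0.0568) and Chek2 (0.0845) without Great Basin juniper animal 4. Rpa3 (0.0554) and Fzr1 (0.0553) were lost without Mojave juniper animal 1, and Chek2 (0.0532) without Mojave creosote animal 4. In males alone the averages of Btg1 (0.0778), Bub3 (0.208), Dut (0.185) and Pold2 (0.0572) were lost, and without slide 1 those of Bub3 (0.0563) and Dut (0.0581). The direction of Cdkn1c depended on the probes: the mean of all kept probes rose by 0.46 in the average (adjusted p = 0.0187, limma).

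Among marker lists of liver cell types, 3 of 7 hepatocyte markers tested rose and 0 fell on creosote in Mojave animals, 2 rose and 0 fell in Great Basin animals, and 5 rose in the average. That is 42.9%, 28.6% and 71.4% of the list, against 9.56%, 4% and 12.1% of all genes. In Mojave animals the markers that rose were the plasma proteins Alb (1.62 ± 0.31), Ttr (1.03 ± 0.25) and Fgb (0.97 ± 0.29), and in Great Basin animals the plasma protein Ahsg (0.86 ± 0.16) and the urea cycle enzyme Cps1 (1.03 ± 0.12). The median log2 ratio of the list ranged over 0.25 to 0.91 in the Mojave creosote group, -0.18 to 0.10 in the Mojave juniper group, 0.34 to 0.64 in the Great Basin creosote group and -0.26 to 0.08 in the Great Basin juniper group. Of 5 lymphocyte, 3 erythroid, 4 endothelial, 6 stellate and 1 cholangiocyte markers tested, 0 passed in either population, and of 7 macrophage markers 1, Cd14, fell in Great Basin animals (-0.54 ± 0.10) and in the average (-0.39 ± 0.07). The stellate cell marker Pdgfrb rose in the average, by 0.68 ± 0.18 (adjusted p = 0.021). The lymphocyte markers Cd3e, Cd2, Cd8a and Cd4 were too dim to test. The part of cell composition in the differences above was not tested.

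The arrays differed in brightness and in their place on the slide. Between 46.4% and 76.2% of probes were well above background per array, and slide 1, with 1 array of each group, was the dimmest, at 49.2% on average against 66.0% to 71.7% for the other slides. On every slide Great Basin creosote lay at position 1, Mojave creosote at 2, Mojave juniper at 3 and Great Basin juniper at 4. Position and group therefore cannot be told apart, in the comparisons of diets, of populations and in the interaction. The chosen probes of the 11 members that passed in a diet comparison were well above background on all 4 arrays of every group, except that of Cdc40 on 3 of 4 Mojave creosote arrays.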

How the data were processed

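Per the file headers, the deposited scanner files of Agilent Feature Extraction 9.1.3.1 hold the mean signal and local background of both dyes per spot as linear intensity, with flags for spots well above background. The series values deposited by the authors are on the log2 scale and equalled the ratio of processed red to processed green signal within 5e-10. Per the labels' protocols, 500 ng of total RNA was labelled per sample, with no dye exchange.

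The intensities were read in R 4.3.3 with limma 3.58.1. Normexp with an offset of 50 and loess within each array were applied, control and outlier spots had weight 0, outlier spots were left out, and spots of 1 probe were averaged. The offset draws ratios of dim genes towards 0. A probe was kept when 4 or more of 16 arrays had red well above background, with at least 2 values per group, and the brightest kept probe stood for its gene, so 30106 probes for 26486 genes were tested. All 66 members had 16 values. Number of arrays and signal over background limit the precision; the median SE over genes was 0.10 in Mojave and 0.09 in Great Basin animals.

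A model with 4 group means and sex was fitted to all arrays (residual degrees of freedom 11, prior 4.03), and 7 contrasts were tested two-sided with Benjamini-Hochberg adjustment. Sex was a term because 1 group was all male. The steps were tested on simulated data. Members and lists were chosen with earlier results of these data known. Named are all members that passed, the 10 largest others in each averaged contrast, a set of well-known cell cycle genes, and listed genes that passed. Alternatives were another offset, median centring, processed signals, the red channel alone, other probe filters and probe choices, no sex term, slide or replicate number as a block, and each animal left out. Leaving out slide 1 and keeping males alone were chosen after seeing the data.

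Replicate numbers did not pair the animals: over 24 pairs of arrays with 1 number, the correlation of deviations had a median of -0.03 (range -0.17 to 0.14), and 3 pairs exceeded 0.1. Symbols come from the array design and can be old. Probe sequences were not used here.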

Additional observations from a re-analysis of the deposited data

Results flagged for a closer look

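In 204 groups of 4 animals, those of the named genes, 9 values stood apart from the other 3 of their group by Dixon's criterion, which chance meets in about 1 of 20 groups. Great Basin creosote animal 4 accounted for 3 of them: Mcm2 at -0.94, against -0.45 to -0.38 in the other 3 animals, Mcm5 at -0.68, against -0.25 to -0.19, and Rfc3 at 0.13, against 0.02 to 0.03. In the same group Mcm7 stood at -0.062 in animal 1, against 0.09 to 0.12, and Cdk5rap1 at -0.24 in animal 2, against -0.09 to -0.07. Plk1 stood at -0.014 in Mojave juniper animal 2, against 0.08 to 0.09. Dut stood at -0.39 in Mojave creosote animal 4, against -0.91 to -0.85. Great Basin juniper animal 1 stood apart for Gadd45b, at 0.13 against -0.66 to -0.55, and for Fzr1, at 0.075 against -0.0113 to -0.0084. Groups in which a value of Rfc3, Plk1, Cdk5rap1 or Fzr1 stood apart span less than 0.2 on the log2 scale.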

How the results depend on the processing

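Counts of members past the threshold moved with the scaling. Median centring in place of loess gave 1 (higher) in Great Basin animals, 22 (all lower) in Mojave animals, 10 between populations on creosote and 15 in the interaction, against 3 (1 higher, 2 lower), 10 (1 higher, 9 lower), 0 and 0. Calls over all genes moved too, to 4.36%, 18%, 11.8% and 9.18%, against 4%, 9.56%, 0.0793% and 0% with loess. The processed signals gave 0 in Great Basin animals, and 2 higher and 7 lower in the average, against 1 higher and 8 lower. They called 2.68% and 10.1% of all genes in these comparisons. The red channel alone gave 6 in Mojave animals and 2 higher and 2 lower in Great Basin animals, with 4.11% and 5.28% of all genes called. Without the sex term 16 passed in Mojave animals, with 12.4% of all genes called. Without slide 1, 1 passed in Great Basin animals, with 1.51% of all genes called. In males alone 0 passed there, 6 in Mojave animals and 5 in the average, with 0.578%, 4.04% and 4.74% of all genes called. With replicate number as a block, 3 passed in Great Basin animals, 11 in Mojave animals and 10 in the average, with 3.53%, 9.04% and 11.2% of all genes called. The numbers did not pair the animals: 2 of 16 arrays matched best with their own number. Leaving out 1 animal gave 1 to 4 in Great Basin animals, 8 to 12 in Mojave animals, 8 to 11 in the average, 0 to 2 between populations on creosote, 0 to 2 on juniper, 0 to 1 averaged over diets and 0 to 3 in the interaction. Over all genes, Mojave calls numbered 2532, against 4767 under median centring and 1088 in the red channel alone, and interaction calls 0, against 2431 and 0. With the mean of all kept probes Cdkn1c reversed, to 0.69 in Great Basin animals, 0.24 in Mojave animals and 0.46 in the average. No difference of a named member changed sign at a call; the cause of each shift was not tested.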
